A study of Mus musculus with 4 samples.

Results

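The genes described are 31 mouse genes of glycolysis and the hypoxia response, 31 of the 32285 genes in the deposited table. They were chosen by symbol as 2 lists, and every one of the 31 was found in the table. The glycolysis list holds 18 genes for the enzymes of the pathway, for the glucose carriers Slc2a1 and Slc2a3, for the lactate carrier Slc16a3 and for the regulator Pfkfb3. The hypoxia list holds 13 genes, which are Hif1a and 12 known targets of the hypoxia-inducible factors.

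They were measured in single CD45+ leukocytes, sorted from ovaries. All mice were C57BL/6J females of 10 to 12 weeks. The gonadotropin group is 5 mice given gonadotropin and harvested 48 h later. The untreated group is 5 mice given saline and harvested at the same time. Cells were tagged by mouse with hashtag antibodies, and each group became 1 pooled 10x Chromium 3′ library. Treatment, pool and library therefore cannot be told apart in these data, and the agent is labelled only as gonadotropin, with no dose.

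Glycolysis splits glucose into pyruvate in the cytosol, and activated or highly motile leukocytes lean on it heavily. When oxygen is short, prolyl hydroxylases such as those made from Egln1 and Egln3 slow down, the HIF-1α protein made from Hif1a is no longer degraded, and it joins ARNT on DNA at sites that carry the core letters ACGTG or GCGTG. Many glycolysis genes are themselves targets of this factor, so both lists belong to one textbook response. HIF-1α is controlled mainly as a protein, which these RNA counts do not measure.

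Because both lists are tied to that core motif, the 250 bases before the annotated start of each gene were searched for it. RefSeq promoters of build GRCm38.p6 were found for 28 of the 31 genes, in 42 windows, since some genes have more than 1 start. ACGTG stood on either strand in 20 of the 42 windows (47.6%), against 16.6% of all 32851 promoter windows of that length. By list it stood in 11 of 25 glycolysis windows and 9 of 17 hypoxia windows. With GCGTG counted as well, 32 of 42 windows held a match (76.2%), against 38.6% of all windows. Windows of 1 gene can overlap and hold the same site. By gene, ACGTG stood in 17 of 28 members, against 4998 of all 27025 genes. The lists were chosen with known targets of the factor, so the excess is no test. The background was not matched for base composition. A match is a description of the letters and shows no binding. The following 4 windows are examples that hold ACGTG, from genes with results below. Other genes with results differ: the windows of Tpi1 and Gpi1 hold neither motif, and that of Gapdh holds GCGTG alone. Capitals mark ACGTG or GCGTG, or their reverse complements CACGT and CACGC. The window of Pgk1 lies at chrX:106186850-106187099 on the plus strand, that of Pgam1 at chr19:41911621-41911870 on the plus strand, that of Hk2 at chr6:82774455-82774704 on the minus strand and that of Egln1 at chr8:124949255-124949504 on the minus strand. Each ends next to the first base of the annotated gene.
Pgk1: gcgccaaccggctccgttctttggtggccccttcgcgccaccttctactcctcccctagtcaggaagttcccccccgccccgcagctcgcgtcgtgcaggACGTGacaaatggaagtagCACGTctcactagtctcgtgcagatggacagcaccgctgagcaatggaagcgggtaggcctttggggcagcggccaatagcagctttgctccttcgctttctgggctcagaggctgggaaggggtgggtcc
Pgam1: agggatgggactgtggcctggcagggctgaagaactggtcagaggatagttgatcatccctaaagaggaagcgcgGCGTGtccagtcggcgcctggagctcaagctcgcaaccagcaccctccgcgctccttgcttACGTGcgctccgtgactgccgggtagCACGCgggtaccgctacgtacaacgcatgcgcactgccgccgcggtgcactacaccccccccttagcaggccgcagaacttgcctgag
Hk2: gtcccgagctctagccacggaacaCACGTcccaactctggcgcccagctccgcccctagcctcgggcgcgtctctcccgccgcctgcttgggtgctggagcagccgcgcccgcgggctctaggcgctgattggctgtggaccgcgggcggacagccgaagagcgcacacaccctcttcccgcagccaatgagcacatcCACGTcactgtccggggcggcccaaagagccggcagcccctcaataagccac
Egln1: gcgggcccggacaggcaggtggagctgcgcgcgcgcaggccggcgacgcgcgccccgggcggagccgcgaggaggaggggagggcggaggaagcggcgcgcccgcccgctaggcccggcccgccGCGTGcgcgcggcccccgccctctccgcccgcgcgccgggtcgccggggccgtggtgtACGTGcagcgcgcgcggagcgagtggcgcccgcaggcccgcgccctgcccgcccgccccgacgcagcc
Pgk1 and Hk2 each carry 2 copies of ACGTG in these windows. Pgam1 and Egln1 each carry 1 copy, with GCGTG in addition.

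After hashtag calls and filters, 4918 cells were kept, 2423 from the gonadotropin and 2495 from the untreated group. Each mouse gave 290 to 828 cells in the gonadotropin and 296 to 726 in the untreated group, and summed UMIs per mouse ran from 2559097 to 7097779. Cells were placed in types by marker genes, which put 3577 of the kept cells in 8 types, and 6 types had enough cells for tests. In the tested types the gonadotropin and untreated mice gave 231 and 506 B-1-like, 215 and 229 CD4 T-like, 171 and 211 CD8 T-like, 360 and 177 NK-like, and 187 and 111 macrophage-like cells. The follicular B-like gate held 1060 cells, 534 of them from gonadotropin mice. Of markers outside the gates, S100a8 was at 37248 CPM, UMI counts scaled to a common library total, in neutrophil-like cells. Lyz2 was at 16365 in macrophage-like and Gzma at 8235 in NK-like cells. Mzb1 was at 570 in B-1-like and 232 in follicular B-like cells, and Cd40lg at 148 in CD4 T-like and 7.95 in CD8 T-like cells. Others did not separate these gates: Ly6d was at 1427 in B-1-like and 1387 in follicular B-like cells, and Lef1 at 1263 in CD4 T-like and 1300 in CD8 T-like cells. The libraries share 4 cell barcode sequences, 2 of them among kept cells of both. In the gonadotropin library 22 kept cells held 1% or more hemoglobin UMIs, 12 of them in the follicular B-like gate, and no untreated cell did. For that reason levels by type are CPM of the UMIs outside the 4 hemoglobin genes. Levels beside a treatment test are CPM scaled by TMM, a normalization that assumes most genes are alike between samples.

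Among the 6 tested types, glycolysis genes summed highest in macrophage-like cells and lowest in follicular B-like cells. Summed over the 18 genes, the level was 2704 ± 408 CPM in macrophage-like cells of gonadotropin mice (SD, n = 5) and 2883 ± 402 in those of untreated mice (n = 3). In follicular B-like cells it was 1012.5 ± 49.6 and 1093 ± 52.3 (n = 5 each). NK-like cells came after macrophage-like cells with 1735 ± 89.7 and 1802 ± 142 (n = 5 each). CD4 T-like cells held means of 1499 and 1498, B-1-like cells 1335 and 1378, and CD8 T-like cells 1323 and 1294. Of the 6 tested types, the highest mean of 13 of the 18 glycolysis genes was in macrophage-like cells, and that of the other 5 in NK-like cells. Neutrophil-like cells, 58 and 22 cells in the groups, were too few to test by mouse and were summed over all mice of a group. There the 18 genes summed to 3349 CPM (95% Poisson interval 3113 to 3599, counting error only) in the gonadotropin and 4105 (3700 to 4541) in the untreated group. With 1 sum a group, values of these cells have no replicate check.

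The hypoxia list had another order. Among the tested types its summed level was highest in CD4 T-like cells, at 760 ± 51.1 and 740 ± 75.6 CPM (n = 5 each), and in macrophage-like cells, at 669 ± 45.0 (n = 5) and 722 ± 93.4 (n = 3). These ranges overlap. B-1-like cells had the lowest, at 394 ± 30.0 and 398 ± 29.1 (n = 5 each). Among these types single members peaked in different ones, 6 of 13 in macrophage-like, 3 in CD4 T-like, 2 in NK-like, 1 in CD8 T-like and 1 in B-1-like cells. In neutrophil-like cells the 13 genes summed to 872 CPM (754 to 1004) and 895 (712 to 1111) in the gonadotropin and untreated groups.

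**Figure D1:**
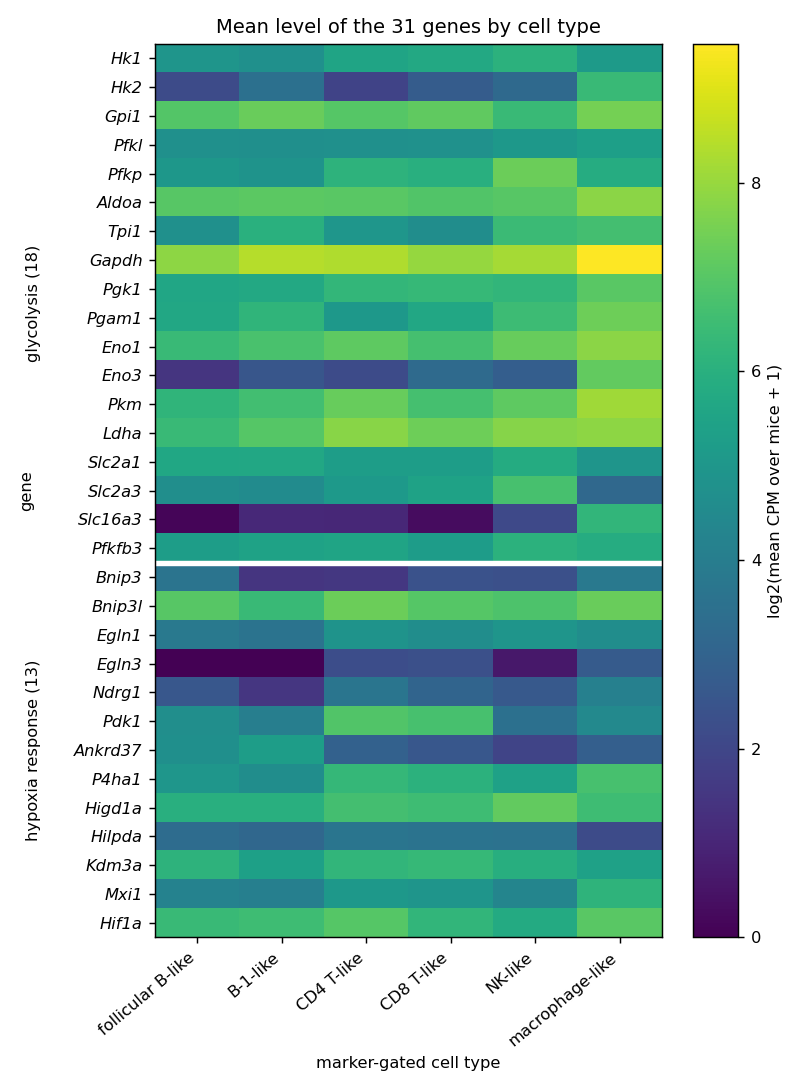
Mean level of each of the 31 genes (rows) in 6 marker-gated cell types (columns), as log2 of the mean CPM over mice plus 1, with the 18 glycolysis genes above the white line and the 13 hypoxia genes below it. Gapdh in macrophage-like cells is the brightest field at 709 CPM, Slc16a3 is bright in macrophage-like cells alone among these types, and Pdk1 is bright in both T cell types.

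The carriers and the first steps divided the cell types. Slc2a3, the neuronal-type glucose carrier GLUT3, averaged 103 ± 28.4 CPM in NK-like cells (n = 10), with a lowest mouse of 59.8, above every mouse of the next type and below 1 follicular B-like value of 62.3. CD8 T-like cells followed at 43.3 ± 7.69 (n = 7), CD4 T-like cells at 33.0 ± 16.4, follicular B-like cells at 24.7 ± 15.2 and B-1-like cells at 22.9 ± 9.06 (n = 10 each). Macrophage-like cells were lowest at 8.31 ± 9.17 (n = 8). The erythrocyte-type carrier gene Slc2a1 varied little by comparison, from 29.8 ± 21.4 in macrophage-like (n = 8) to 55.2 ± 18.9 in NK-like cells (n = 10), and each neighbouring pair of types overlapped.

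Among the tested types Hk2, an inducible hexokinase, was highest in macrophage-like cells. It averaged 84.7 ± 16.01 CPM there (n = 8) and 10.4 ± 5.61 in the next type, B-1-like cells (n = 10), without overlap. In neutrophil-like cells of both groups together it stood at 76.4 CPM (49.0 to 114). Hk1, the widely expressed hexokinase, had 67.3 ± 15.6 in NK-like (n = 10) and 34.7 ± 8.004 in macrophage-like cells (n = 8). Pfkp, the platelet-type phosphofructokinase, averaged 160 ± 67.3 in NK-like cells and 28.4 ± 6.64 in B-1-like cells (n = 10 each), whereas the liver-type Pfkl stayed between 25.0 and 39.9 in all 6 types. The activator of phosphofructokinase, Pfkfb3, ran from 37.1 ± 13.6 in CD8 T-like (n = 7) to 66.5 ± 25.7 in NK-like cells (n = 10), with overlap between neighbours throughout.

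Among the later steps, macrophage-like cells stood clear of the next type for Gapdh, Pgk1 and Eno3, and among the carriers for Slc16a3. Gapdh, which oxidizes glyceraldehyde phosphate, averaged 709 ± 183 CPM there (n = 8), and B-1-like cells came next at 339 ± 42.1 (n = 10). Pgk1, the first enzyme of the pathway to return ATP, averaged 132 ± 32.8 (n = 8), followed by 79.4 ± 12.2 in CD8 T-like cells (n = 7). Eno3, the muscle-type enolase, averaged 145 ± 84.1 in macrophage-like cells (n = 8) and 8.69 ± 5.53 or less in every other tested type. Slc16a3, which exports lactate, averaged 74.6 ± 21.5 there (n = 8) against 3.21 ± 2.21 or less elsewhere among the tested types.

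In the hypoxia list the T cell types stood apart through Pdk1, the kinase that holds pyruvate back from oxidation in the mitochondrion. Pdk1 averaged 119 ± 25.1 CPM in CD4 T-like (n = 10) and 103 ± 19.1 in CD8 T-like cells (n = 7), against 24.6 ± 9.52 in the next type, follicular B-like cells (n = 10). Ankrd37, a small ankyrin repeat gene induced by hypoxia, was highest in both B cell types. It averaged 37.8 ± 6.03 in B-1-like and 25.1 ± 9.83 in follicular B-like cells (n = 10 each), and 6.68 ± 4.18 or less in the other tested types. Egln3 gave no UMI in follicular B-like or B-1-like cells, which allows up to 0.496 and 0.319 CPM at that depth, counting error only. Macrophage-like cells had 5.63 ± 5.85 CPM of Egln3 (n = 8). In neutrophil-like cells Egln3 stood at 94.4 CPM (58.4 to 144) in the gonadotropin and 54.6 (17.7 to 127) in the untreated group. In the same cells Slc2a3 stood at 566 CPM (472 to 674) and 306 (203 to 442), and Slc16a3 at 364 (289 to 453) and 284 (185 to 416).

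The first comparison of types asked how B-1-like cells, named from the markers of the innate-like B cells of body cavities, differ from follicular B-like cells within the same 10 mice. Glycolysis genes were higher in B-1-like cells for 8 of the 15 tested and lower for none. Over both lists 10 of 23 tested members were higher and 2 lower. The background is high, since 42.7% of all 6892 tested genes passed in either direction, 21.8% higher and 20.8% lower. The median log2 fold change of the 15 glycolysis genes was 0.43, and that of all genes −0.02.

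Tpi1, triose-phosphate isomerase, had the largest fold of the 15 tested glycolysis genes. It ran from 39.8 to 86.0 CPM over mice in B-1-like cells (median 64.0) and from 18.3 to 33.5 in follicular B-like cells (median 26.7). Its log2 fold change was 1.40 ± 0.15 (SE, adjusted p = 2.42e-10, edgeR quasi-likelihood), higher in 10 of 10 mice with no overlap between the types. Gapdh ran from 274 to 404 CPM (median 338) against 195 to 256 (median 232), also without overlap, at 0.70 ± 0.07 (adjusted p = 2.33e-10). Ldha, which makes lactate from pyruvate, ran from 102 to 154 CPM (median 122) against 65.0 to 118 (median 80.8), at 0.69 ± 0.09 (adjusted p = 5.27e-08).

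Another 4 enzyme genes and the regulator gene stood higher as well. Pgam1, phosphoglycerate mutase, was higher in 9 of 10 mice (0.68 ± 0.12 on the log2 scale), Pkm, pyruvate kinase, in 10 (0.60 ± 0.09), Gpi1, glucose phosphate isomerase, in 9 (0.48 ± 0.08), and Eno1, the main enolase, in 10 (0.48 ± 0.09). Pfkfb3 was the weakest at 0.43 ± 0.15 (adjusted p = 0.021), with only 6 of 10 mice higher in B-1-like cells. It did not pass without untreated mouse 1, 2 or 5, or with DESeq2.

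**Figure D2:**
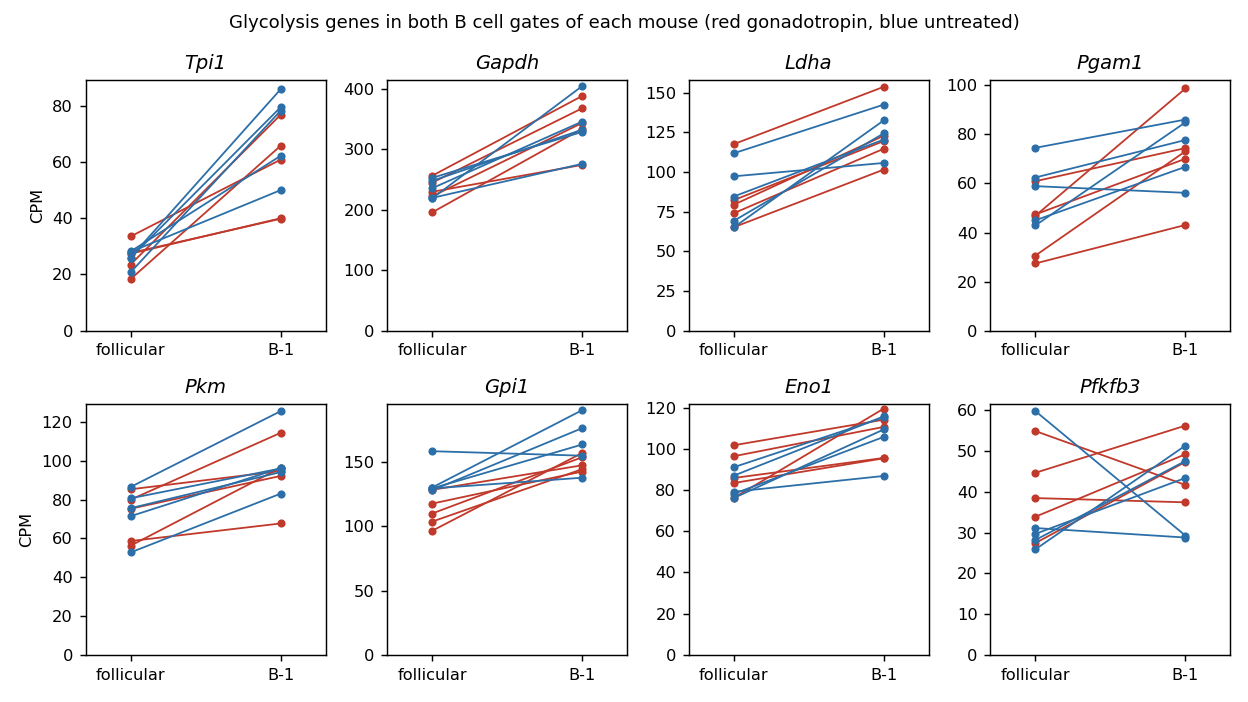
Level (CPM, linear axes from 0) of 8 glycolysis genes in follicular B-like and B-1-like cells of each of the 10 mice, 1 line a mouse, red for gonadotropin and blue for untreated. Lines rise in every mouse for Tpi1, Gapdh, Ldha, Pkm and Eno1, in 9 of 10 for Pgam1 and Gpi1, and cross for Pfkfb3.

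The hypoxia list did not move as one. Ankrd37 was higher in B-1-like cells, 31.1 to 50.02 CPM (median 35.4) against 8.14 to 41.2 (median 24.0), at a log2 fold change of 0.76 ± 0.16 (adjusted p = 0.000128), in 9 of 10 mice. Hif1a itself was higher by 0.30 ± 0.11 (adjusted p = 0.0243) in 6 of 10 mice, and its ranges overlap almost fully. It did not pass without gonadotropin mouse 3 or 4 or untreated mouse 2 or 5, or with DESeq2. Kdm3a, a histone demethylase gene, was lower in 10 of 10 mice, 27.7 to 51.9 CPM (median 41.6) against 52.1 to 86.5 (median 69.9), at −0.58 ± 0.11 (adjusted p = 3.73e-05) and without overlap. Bnip3l, a mitophagy receptor gene also raised in erythroid cells, differed by −0.35 ± 0.11 (adjusted p = 0.012) and was lower in 8 of 10 mice. It did not pass without the hemoglobin-rich cells, without gonadotropin mouse 5, with DESeq2, with the strict gate or with cells thinned to 5000 UMIs.

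Depth differed between these gates, with median UMIs per cell of 12886 and 12406.5 in B-1-like cells against 5491.5 and 5491 in follicular B-like cells of the gonadotropin and untreated groups. Among cells with 6000 to 15000 UMIs in both gates, 8 of the 12 differences still passed, while Ldha (0.32, adjusted p = 0.0591), Pfkfb3, Hif1a and Bnip3l did not. All 15 ribosomal protein genes listed were higher in B-1-like cells too, with a median log2 fold change of 0.59, as were 12 of 13 mitochondrially encoded genes, with a median of 0.58. Their part in the result was not tested. With plain UMI totals the median of all genes moved to −0.18 and the share of higher genes among those that passed from 51.2% to 27.8%, and 8 members were then higher and 3 lower. Hif1a (0.13) and Pfkfb3 (0.27) no longer passed with those totals, and Pdk1 (−0.62) passed as lower. In wider lists drawn up beside the 31, 1 of 3 other genes listed with glycolysis was higher, Mpc2 of the mitochondrial pyruvate carrier. Of 8 other hypoxia targets 4 were higher (Rbpj, Mif, Ero1l and Fam162a) and 2 lower (Kdm4c and Wsb1). Of 7 pentose phosphate genes 2 were higher (Pgls and Tkt).

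Macrophage-like cells were compared with follicular B-like cells in the 8 mice with at least 20 cells of each. Of 23 tested members 19 were higher and 2 lower, where 66.1% of all 5413 tested genes passed, 33.1% higher and 33.0% lower. The glycolysis list held 15 higher and 1 lower of 17 tested, with a median log2 fold change of 1.41 against −0.03 for all genes. These counts include Hk2, Eno3 and Slc16a3, which were too low to test in follicular B-like cells alone, so they entered through the cells where they are high. Of the 20 members tested in both types 16 were higher and 2 lower, and of the 14 such glycolysis genes 12 were higher and 1 lower, with a median of 1.13.

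Those 3 genes are given as levels only. Hk2 ran from 69.0 to 113 CPM (median 81.1) in macrophage-like cells and from 0 to 9.14 (median 4.91) in follicular B-like cells. Eno3 ran from 40.6 to 291 CPM (median 124) against 0 to 7.82 (median 0.987). Slc16a3 ran from 49.97 to 113 CPM (median 71.9), and a single UMI was counted in all 1060 follicular B-like cells, so no fold is given. None of these ranges overlap.

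Several core enzymes of the pathway stood higher. Pkm ran from 204 to 429 CPM (median 265) against 56.2 to 86.5 (median 75.4), at a log2 fold change of 1.94 ± 0.13 (adjusted p = 1.34e-12). Tpi1 was higher by 1.95 ± 0.17, Pgam1 by 1.70 ± 0.18, Gapdh by 1.57 ± 0.12, Pgk1 by 1.48 ± 0.15, Eno1 by 1.41 ± 0.13 and Ldha by 1.41 ± 0.15, each in 8 of 8 mice without overlap. Smaller steps were seen for Pfkp (0.86), Aldoa (0.75), Pfkl (0.71), Pfkfb3 (0.69) and Gpi1 (0.63). Pfkl did not pass with DESeq2, in untreated mice alone or without gonadotropin mouse 2, 3 or 4. Among cells with 6000 to 15000 UMIs Aldoa and Pfkfb3 did not pass. Nor did Pfkfb3 in gonadotropin mice alone or Gpi1 in untreated mice alone. The glucose carrier gene Slc2a1 went against the list at −0.77 ± 0.26 (adjusted p = 0.0126), with 2 of 8 mice higher. It did not pass with DESeq2, without gonadotropin mouse 4 or among cells with 6000 to 15000 UMIs.

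In the hypoxia list Mxi1, which encodes a MYC antagonist, was higher by 1.99 ± 0.21, and P4ha1, a subunit of collagen prolyl hydroxylase, by 1.64 ± 0.17, both in 8 of 8 mice without overlap. Hif1a was higher by 0.71 ± 0.18 and Higd1a, a mitochondrial protein gene, by 0.46 ± 0.16 in 7 of 8 mice each. Higd1a did not pass with DESeq2, the loose gate, thinned cells, cells of 6000 to 15000 UMIs, where its fold was 0.16, or either treatment group alone. Kdm3a was lower in 8 of 8 mice at −0.65 ± 0.18 (adjusted p = 0.00258), but did not pass among cells with 6000 to 15000 UMIs. Beside the lists, 4 of 5 tested pentose phosphate genes were higher (Pgd, Taldo1, Tkt and G6pdx) and Pgls was lower. Of other hypoxia targets 5 of 8 were higher (Plin2, Rbpj, Bhlhe40, Cited2 and Wsb1) and 2 lower (Kdm4c and Fam162a). When each cell was thinned to 5000 UMIs, 13 members passed in place of 21. Of the 21, only Higd1a was tested there and did not pass, and the others lost were then too low to test. Between 64.2% and 68.5% of the macrophage-like cells sat at the edge of their gate, with just 2 own markers or with a marker of another lineage. In the other tested types this share ran from 23.1% (CD4 T-like, untreated) to 48.1% (B-1-like, gonadotropin).

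NK-like and CD8 T-like cells, both cytotoxic lymphocytes, were compared in 7 mice. Of 22 tested members 4 were higher in NK-like cells and 7 lower, where 42.1% of all 5495 tested genes passed, 20.5% higher and 21.7% lower. In the glycolysis list 4 of 15 genes were higher and 2 lower, while in the hypoxia list 5 of 7 were lower and none higher. These 5 include Pdk1, which was too low to test in NK-like cells alone.

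Pdk1 was too low to test in NK-like cells alone, so it entered through CD8 T-like cells and is given as levels only. Of the 21 members tested in both types 4 were higher and 6 lower. Pdk1 ran from 3.16 to 23.1 CPM (median 6.79) in NK-like cells and from 69.9 to 126 (median 101) in CD8 T-like cells. It was lower in 7 of 7 mice without overlap. P4ha1 ran from 29.9 to 55.5 CPM (median 34.4) against 42.8 to 110 (median 55.6), at −1.12 ± 0.18 (adjusted p = 9.1e-06), lower in 7 of 7 mice. Gpi1 ran from 66.4 to 97.2 CPM (median 86.6) against 132 to 163 (median 138), at −1.07 ± 0.13 (adjusted p = 2.35e-07), without overlap.

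Higher in NK-like cells were a carrier and 3 enzymes. Slc2a3 ran from 59.8 to 147 CPM (median 102) against 32.9 to 55.5 (median 39.5), at 0.77 ± 0.19 (adjusted p = 0.00152). Tpi1 ran from 52.3 to 123 CPM (median 83.2) against 3.89 to 32.3 (median 27.5), at 1.40 ± 0.22 (adjusted p = 6.81e-06), and Pfkp from 69.4 to 275 (median 149) against 46.7 to 90.6 (median 60.1), at 1.07 ± 0.19 (adjusted p = 4.2e-05). Each was higher in 7 of 7 mice. Pgam1 was higher by 0.47 ± 0.17 (adjusted p = 0.029), also in 7 of 7, but did not pass without gonadotropin mouse 2 or 4 or untreated mouse 1 or 3.

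These folds moved with the scaling. All 15 ribosomal protein genes listed were lower in them, with a median log2 fold change of −1.52, and all 12 mitochondrially encoded genes tested, with a median of −1.04. The part of these genes in the effect of the scaling was not tested. With plain UMI totals the median of all genes rose from −0.01 to 0.35, and the share of higher genes among those that passed from 48.6% to 78.6%. Members then split into 10 higher and 4 lower. Pdk1, P4ha1, Gpi1 and Kdm3a stayed lower, and Slc2a3, Tpi1, Pfkp and Pgam1 stayed higher. Pgk1 (−0.07), Bnip3l (−0.21) and Hif1a (−0.25) no longer passed, and Hk1, Eno1, Pkm, Ldha, Pfkfb3 and Higd1a were higher. With TMM, Hif1a, Bnip3l and Pgk1 had log2 fold changes of −0.60, −0.57 and −0.43, and Kdm3a −0.89. Pgk1 did not pass without gonadotropin mouse 1 or 4.

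**Figure D3:**
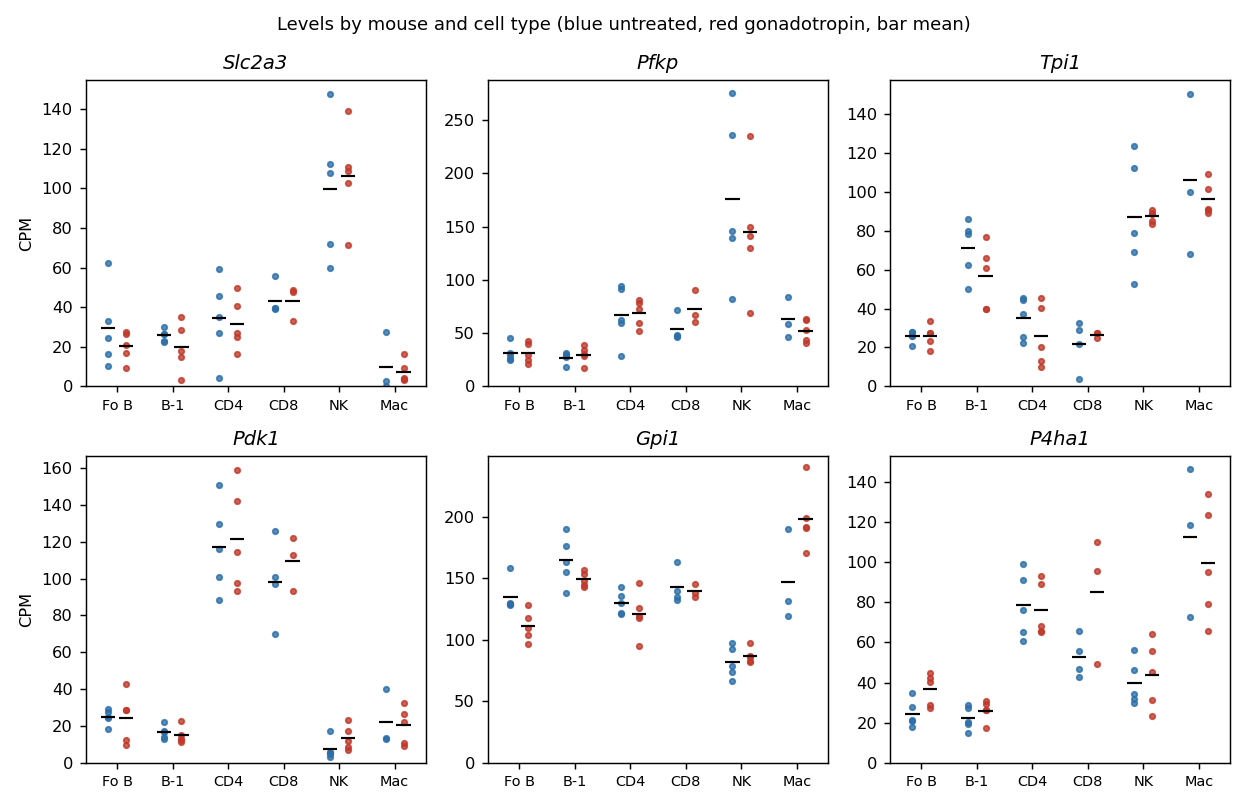
Level (CPM, linear axes from 0) of 6 members in each mouse with at least 20 cells of the type, blue for untreated and red for gonadotropin mice, with bars at the group means. NK-like cells are high for Slc2a3 and Pfkp and low for Gpi1, Pdk1 is high in both T cell types, and the groups overlap in every type for Slc2a3, Pfkp, Tpi1 and Pdk1.

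CD8 T-like and CD4 T-like cells differed little. Of 23 tested members 3 were lower in CD8 T-like cells and none higher over 7 mice, where 10.7% of all 5418 tested genes passed, 5.68% higher and 5.02% lower. Hif1a ran from 51.9 to 88.0 CPM (median 77.8) against 88.5 to 124 (median 106), at −0.46 ± 0.14 (adjusted p = 0.0213). Pkm ran from 67.2 to 131 CPM (median 97.2) against 128 to 183 (median 136), at −0.41 ± 0.12 (adjusted p = 0.0223). Ldha ran from 132 to 193 CPM (median 167) against 175 to 229 (median 223), at −0.31 ± 0.10 (adjusted p = 0.0484). In each of the 7 mice all of these were lower in CD8 T-like cells. The tests are less firm than the direction, since DESeq2 called none of the 3 and leaving out 1 mouse left 0 to 4 members. Hif1a did not pass without gonadotropin mouse 2 or 4 or untreated mouse 1, Pkm without gonadotropin mouse 2 or untreated mouse 1 or 3, and Ldha without any 1 of gonadotropin mice 1, 2 and 4 and untreated mice 3 and 5.

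Treatment was compared first over all CD45+ cells of each mouse. All 31 members were tested, and 3 were higher and 1 lower in gonadotropin mice, where 9.12% of all 11266 tested genes passed, 4.97% higher and 4.15% lower. The median log2 fold change was 0.03 for the glycolysis list, 0.20 for the hypoxia list and −0.003 for all genes. In sums over all cells, fewer cells of a type and less RNA per cell cannot be told apart.

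Slc16a3 stood at 16.84, 18.86, 19.79, 12.42 and 11.71 CPM in gonadotropin mice 1 to 5 and at 3.64, 7.13, 7.49, 10.75 and 8.47 in untreated mice 1 to 5. The means were 15.9 ± 3.69 and 7.50 ± 2.58 (SD, n = 5 each), without overlap, at a log2 fold change of 1.09 ± 0.23 (adjusted p = 0.0135). The gonadotropin cells held more of the cells in which this gene was high, 7.72% against 4.45% macrophage-like cells and 2.39% against 0.88% neutrophil-like cells. When each mouse gave the same number of cells of each of the 6 tested types, the log2 fold change was 0.23 and did not pass.

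Egln1, the main oxygen-sensing prolyl hydroxylase gene, stood at 22.23, 24.76, 21.31, 22.46 and 24.45 CPM in gonadotropin mice and at 18.92, 16.003, 17.59, 13.54 and 18.50 in untreated mice. Every gonadotropin mouse was above every untreated one. The means were 23.0 ± 1.495 and 16.9 ± 2.19 (n = 5 each), at 0.43 ± 0.10 (adjusted p = 0.0232). Pfkfb3 stood at 51.70, 55.41, 63.54, 50.78 and 53.38 CPM against 36.87, 44.54, 42.67, 33.46 and 47.52, again without overlap. Its means were 55.0 ± 5.11 and 41.0 ± 5.74, at 0.40 ± 0.10 (adjusted p = 0.0249). With Slc16a3 these were the 3 of 31 members without overlap over all cells. How many of all tested genes lacked overlap there was not counted, so this number has no background. Among equal numbers of cells of each type these folds were 0.44 for Egln1 and 0.39 for Pfkfb3, close to those above, and neither passed. The draw took 14 to 55 cells of a type from each mouse, where at least 290 cells a mouse were kept. The part of this smaller number in the lost calls was not tested. NK-like cells, where both genes had their highest mean among the tested types, made up 14.9% of gonadotropin and 7.09% of untreated cells.

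Ankrd37 stood at 9.83, 17.98, 11.41, 18.55 and 12.05 CPM in gonadotropin mice and at 29.11, 18.32, 26.38, 23.90 and 23.68 in untreated mice. The groups overlap, since gonadotropin mouse 4 was above untreated mouse 2. The means were 14.0 ± 4.01 and 24.3 ± 3.99, at −0.76 ± 0.18 (adjusted p = 0.0236). B-1-like cells, where this gene was highest among the tested types, were 9.53% of gonadotropin and 20.3% of untreated cells, and with equal numbers of cells of each type the fold was −0.16 and did not pass. Single mice decided some of these calls. Ankrd37 did not pass without gonadotropin mouse 3 or 5 or untreated mouse 1 or 3, Egln1 without gonadotropin mouse 5 or untreated mouse 2, and Pfkfb3 without gonadotropin mouse 3 or untreated mouse 1.

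**Figure D4:**
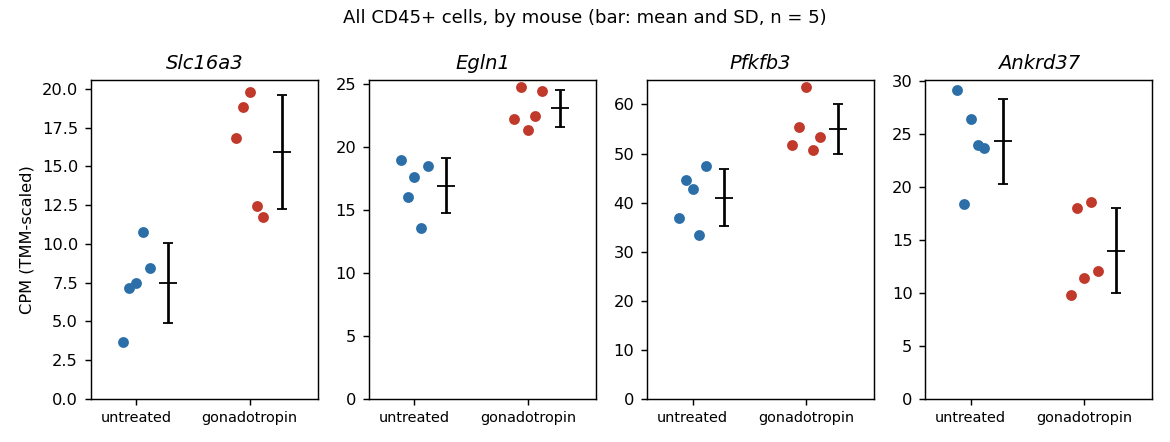
Level of the 4 members that passed the treatment test over all CD45+ cells, as TMM-scaled CPM on linear axes from 0, 1 point a mouse, with mean and SD (n = 5) beside the points. The groups are apart for Slc16a3, Egln1 and Pfkfb3 and overlap for Ankrd37.

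Plain UMI totals raised the share of higher genes among all genes that passed from 54.5% to 73.7% and added Higd1a (0.26, adjusted p = 0.0369). Of 11 other genes listed with glycolysis and tested, Bpgm and Hk3 were higher. Bpgm, whose enzyme makes the red cell metabolite bisphosphoglycerate, was higher by 2.06 ± 0.38 (adjusted p = 0.00663), and the 4 hemoglobin genes were higher as well. Hk3, a myeloid hexokinase gene, was higher by 1.22 ± 0.28 (adjusted p = 0.0172), beside the myeloid markers Csf1r (0.97) and Csf3r (1.28). Without the hemoglobin-rich cells, Slc16a3, Egln1, Pfkfb3 and Ankrd37 still passed in the same direction. The part of red and myeloid cells in the members' values was not tested beyond that fit and the equal-cell fit.

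Within types no member passed the treatment test. Tested members numbered 23 in follicular B-like, 24 in B-1-like, 21 in CD4 T-like, 23 in CD8 T-like, 21 in NK-like and 23 in macrophage-like cells. The background was low as well, with 0.664% of tested genes passing in follicular B-like, 0.325% in B-1-like, 0.066% in CD4 T-like, 0.558% in CD8 T-like, 0.0188% in NK-like and 0.0993% in macrophage-like cells. DESeq2 also called none in any of the 6. At an unadjusted p under 0.05 there were 5, 1, 1, 1, 1 and 1 members, in the same order of types. Of all tested genes 10.4%, 9%, 8.43%, 10.6%, 6.96% and 8.34% were under that limit.

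In follicular B-like cells the members with an unadjusted p under 0.05 went both ways. P4ha1 stood at 29.3, 43.6, 28.2, 41.7 and 45.8 CPM in gonadotropin and at 22.02, 17.8, 21.4, 28.5 and 35.7 in untreated mice, at a log2 fold change of 0.61. Ankrd37 stood at 19.97, 17.0, 25.1, 24.4 and 8.33 against 42.4, 19.9, 34.8, 35.7 and 30.4, at −0.66. Both pairs of groups overlap. The abundant members with the largest folds were Pgam1 (43.8 ± 14.2 against 58.2 ± 13.1 CPM, −0.51 ± 0.20), Bnip3l (146 ± 51.8 against 116 ± 19.1, 0.36 ± 0.16), Gpi1 (114 ± 13.1 against 139 ± 13.4, −0.27 ± 0.12), Aldoa (−0.17 ± 0.15) and Ldha (−0.16 ± 0.16). Their adjusted p ran from 0.311 to 0.795.

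In macrophage-like cells the test had 5 gonadotropin and 3 untreated mice. Pgk1 stood at 99.7, 156, 122, 130 and 109 CPM in gonadotropin mice and at 149, 171 and 205 in untreated mice 2, 4 and 5, at −0.51 ± 0.21 (adjusted p = 0.524). Hk2 stood at 72.8, 77.8, 83.9, 88.1 and 87.1 against 111, 121 and 89.8, at −0.35 ± 0.21 (adjusted p = 0.763). It was the only one of the 23 tested members whose groups did not overlap in these cells, where 5.9% of all tested genes did not. Eno3 (−0.50 ± 0.43), Hif1a (−0.46 ± 0.31) and Gpi1 (0.43 ± 0.21) were no clearer.

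Bnip3l in B-1-like cells averaged 76.1 ± 14.4 CPM in gonadotropin and 96.8 ± 6.65 in untreated mice (−0.33 ± 0.13, adjusted p = 0.455), and Tpi1 57.3 ± 17.9 and 73.7 ± 16.7 (−0.39 ± 0.20, adjusted p = 0.558). Kdm3a in CD4 T-like cells averaged 94.6 ± 15.7 and 67.8 ± 12.8 (0.51 ± 0.20, adjusted p = 0.442). P4ha1 in CD8 T-like cells averaged 86.9 ± 33.9 in 3 gonadotropin and 56.2 ± 11.8 in 4 untreated mice (0.60 ± 0.25, adjusted p = 0.331). Pfkfb3 in NK-like cells averaged 85.3 ± 24.3 and 58.0 ± 25.0 (0.44 ± 0.24, adjusted p = 0.766). Of the members by the naming rule, those left are Gpi1, Higd1a and Pgk1 in B-1-like cells, Gpi1, Gapdh, Eno1 and Aldoa in CD4 T-like cells, Pfkp, Hif1a, Pgam1 and Pgk1 in CD8 T-like cells and Hif1a, Hk1, Kdm3a and Pfkp in NK-like cells. Their log2 fold changes lay between −0.28 and 0.34.

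**Figure D5:**
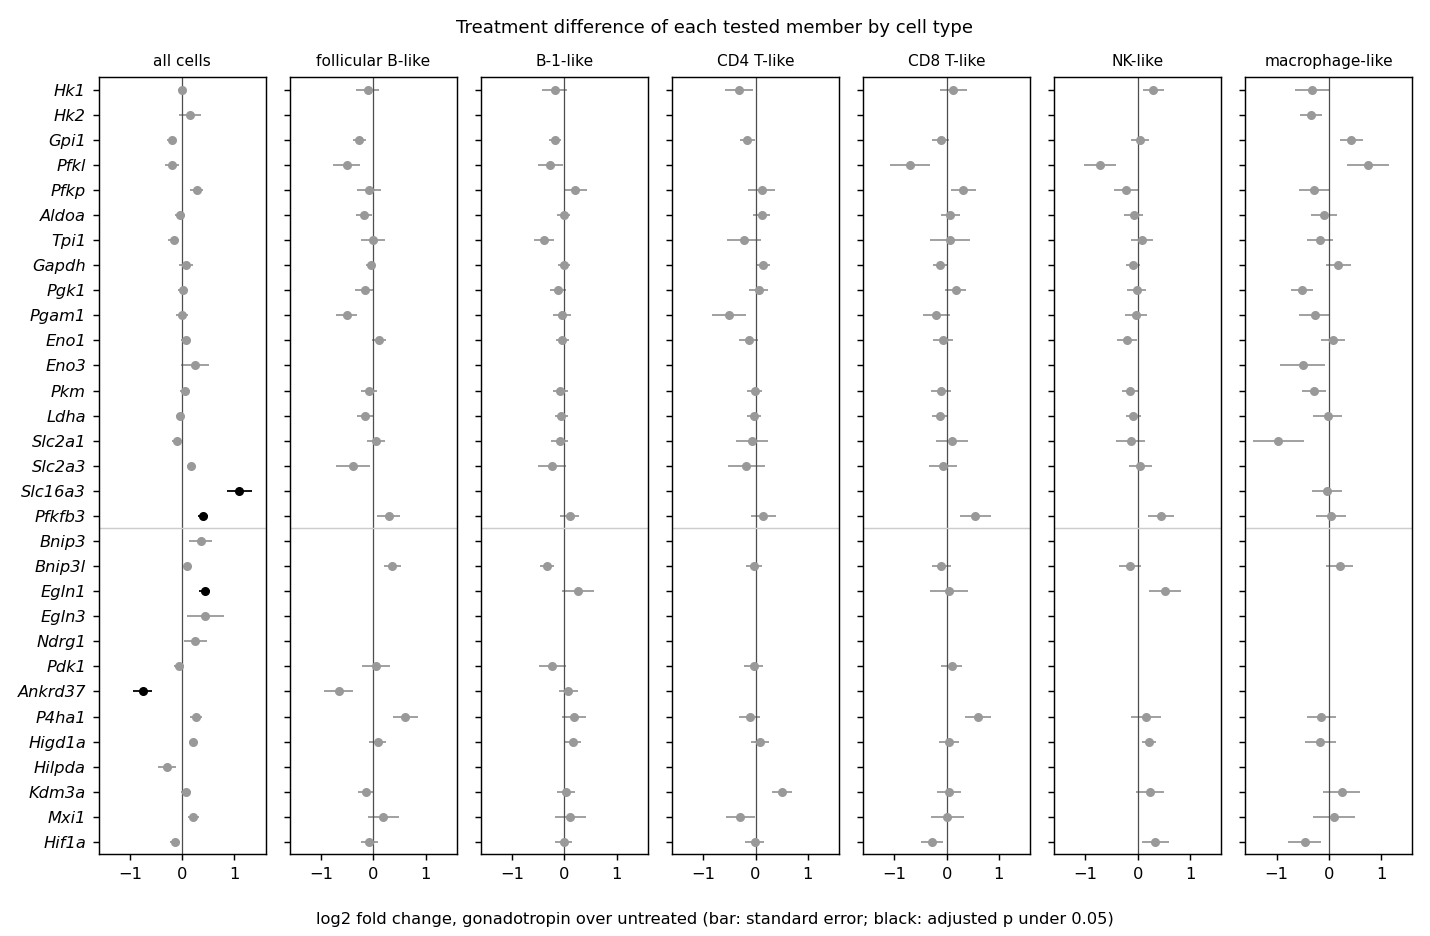
Log2 fold change of gonadotropin over untreated for each tested member (points, with the standard error as bars) over all cells and in 6 cell types, glycolysis above and hypoxia genes below the grey line, black where the adjusted p is under 0.05. Black points occur over all cells alone, and an empty row is a member too low to test in that type.

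The sign of the fold changes was uneven between the lists, which is given as a description. Among glycolysis genes 12 of 15 tested were below 0 in follicular B-like, 13 of 15 in B-1-like, 9 of 14 in CD4 T-like, 8 of 15 in CD8 T-like, 10 of 15 in NK-like and 12 of 17 in macrophage-like cells. Their medians ran from −0.17 in macrophage-like to −0.05 in CD4 T-like cells, against medians of all genes between −0.01 and 0.01. By those medians, all tested genes lay about evenly above and below 0 in each type, which is the background for both lists. Hypoxia genes above 0 numbered 5 of 8, 6 of 9, 2 of 7, 6 of 8, 5 of 6 and 3 of 6 in the same order of types. Summed early response genes did not overlap between the groups in 5 of the 6 types, and overlapped in NK-like cells, at 1891 to 2943 CPM in gonadotropin and 2092 to 2425 in untreated mice. Their summed level ran from 1703 to 2063 CPM in gonadotropin and 2224 to 2671 in untreated follicular B-like cells, and from 2058 to 2803 against 3915 to 4906 in macrophage-like cells. Summed mitochondrially encoded genes ran from 20245 to 21230 against 22094 to 23600 CPM in follicular B-like cells. The part of these shifts in the members' values was not tested.

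Whether treatment differed between types was tested as an interaction against follicular B-like cells, with the mouse as a block. No member passed in CD4 T-like (0.062% of all genes passed), CD8 T-like (0.105%), NK-like (0.0442%), macrophage-like (0.0438%) or B-1-like cells (0.013%). The smallest unadjusted p was 0.00489, for Bnip3l in B-1-like cells, at a difference in log2 fold change of −0.63 ± 0.21 (adjusted p = 0.946). Ankrd37 in the same comparison differed by 0.72 ± 0.30 (unadjusted p = 0.0231, adjusted p = 0.946).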

How the data were processed

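The authors deposited unnormalized UMI counts for both libraries in 1 table of genes by barcodes, and these counts were used. Per the submitters' processing notes, mm10 was the build, and Cell Ranger, bcl2fastq and Seurat were used, with no version given. Mouse and hashtag call were taken from the table the authors deposited, which also holds a hashtag margin, a score that was not used. Its lowest barcode total is 501 UMIs. Of 6468 barcodes, 5031 carried a single hashtag, 1348 were called hashtag doublets and 89 negative, and only the first kind was used. Cells needed at least 500 genes and under 10% mitochondrial UMIs. No other doublet caller was run.

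A cell was given a lineage when it had at least 2 of that lineage's markers and at most 1 of each other lineage's. B cells with at least 2 B-1 markers were B-1-like. Other B cells with at least 2 follicular markers and no B-1 marker were follicular B-like. T cells with Cd4 and neither Cd8 gene were CD4 T-like, and those with a Cd8 gene and no Cd4 were CD8 T-like. How far these rules bear on the depth of each gate was not tested. UMIs were summed per mouse and type, for mice with at least 20 cells, and at least 3 mice a group were needed. Tests used edgeR 4.0.16 in R 4.3.3 (TMM, filterByExpr, quasi-likelihood F test, Benjamini-Hochberg over all genes tested, threshold 0.05). Comparisons of types and the interaction kept the mouse as a block. The count test was checked on simulated data. DESeq2 1.42.0, plain UMI totals, other gates, thinning and leaving out each mouse were alternatives.

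Any of the 31 genes may be named. Where none or few passed, the 5 members with the largest fold among those with a mean of at least 50 CPM are given, and for other lists only genes that passed, at most 5 a list. The members and lists were chosen with earlier results of these data known. The mouse is the replicate, hashtag pools were handled together, and 2 hashtags were used in both pools. Intervals are exact at 95%, and a count of 0 is given the limit of 3 counts, both for counting error only. The authors' counting may split reads between Gapdh, Pgk1, Eno1, Tpi1, Ldha or Aldoa and their retrocopies, so these levels carry that uncertainty.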

Additional observations from a re-analysis of the deposited data

Results flagged for a closer look

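Each treatment group was examined apart, and groups of fewer than 4 mice were left out. Among 67 groups of 4 or 5 mice examined for a mouse far from the rest, 4 held one, and chance alone flags about 1 in 20. All 4 are differences in CPM between types within a mouse. For Eno1, B-1-like minus follicular B-like, gonadotropin mouse 3 stood at 43.4 where the other mice of its group lay between 9.74 and 14.2. For Gapdh in the same comparison gonadotropin mouse 1 stood at 44.5, below the others at 121 to 138. For Bnip3l in that comparison gonadotropin mouse 5 stood at −158, with the others between −60.0 and −24.6. For Gpi1, macrophage-like minus follicular B-like, gonadotropin mouse 3 stood at 136.9, with the others between 70.4 and 80.9.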

How the results depend on the processing

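Over all CD45+ cells 4 members passed the treatment test. Thinned to 5000 UMIs a cell, 1 did, among cells with 6000 to 15000 UMIs 2, and with equal cells of each type 0. Leaving out 1 mouse gave 2 to 4, with 2 without gonadotropin mouse 3, gonadotropin mouse 5 or untreated mouse 1. For CD8 T-like against CD4 T-like cells, 3 members passed, but 0 with DESeq2, 1 with the strict gate, 6 with the loose gate, 1 among cells with 6000 to 15000 UMIs, 5 at 10 or more cells a mouse, and 0 in either treatment group alone. Leaving out 1 mouse gave 0 to 4. For NK-like against CD8 T-like cells the 11 became 7 with DESeq2 and 5 with the strict gate, and 9 to 12 without 1 mouse. For macrophage-like against follicular B-like cells the 21 became 13 when cells were thinned, where most of those lost were too low to test. They became 19 to 22 without 1 mouse. For B-1-like against follicular B-like cells the 12 lay between 8 and 15 under all alternatives run, and between 11 and 13 without 1 mouse. Apart from members that were too low to test, the cause of these moves was not tested. The treatment test within each type and each interaction gave 0 members under every alternative that could be run, and no called value changed sign. The equal-cell, 6000 to 15000 UMI and hemoglobin alternatives were chosen after seeing the data.

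Without the replicate block, which is the mouse, 14 members passed for B-1-like against follicular B-like, 2 for CD8 T-like against CD4 T-like, 12 for NK-like against CD8 T-like and 21 for macrophage-like against follicular B-like cells. No paired analysis was possible between the treatment groups because the mouse numbers only name mice. The strict gate left too few mice for treatment in B-1-like, CD8 T-like, NK-like and macrophage-like cells, for macrophage-like against follicular B-like cells and for most interactions, as did 6000 to 15000 UMIs for NK-like and macrophage-like cells. Single mice could not be left out where a group would fall under 3, in CD8 T-like and macrophage-like cells. Low genes, such as Egln3 and Bnip3, were too shallow for tests within most types.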
